A study of Mus musculus with 11 samples.

Results

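Chromosomes 16, 17 and 19 were examined in 11 mammary tumours of mice carrying the activated Pik3ca allele H1047R, since chromosome 16 was lost and chromosome 17 gained over nearly the whole length in 1 tumour each, and chromosome 19 was low, at the limit of calling, in another. They hold 17242 of the 170305 probes of the array, namely 6274 on chromosome 16, 6548 on chromosome 17 and 4420 on chromosome 19, and all of these probes were taken whatever their values. In bins of 1 Mb they make 248 of 2388 autosomal bins. The chromosomes were chosen by the same log2 ratios, which had shown these changes, so the levels are given as descriptions and no test is made of them.

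Each array compared DNA of a mammary tumour, in the red dye Cy5, with DNA from that animal's liver, in the green dye Cy3, and each tumour had 1 array. The animals were of a mixed FVBN/Bl6 background, and the labels name the H1047R allele for the tumour and the liver alike. The promoter or Cre line, age, sex and treatment are not given in the sources used here, and DNA holds no expression marker by which the tissue labels could be checked. Tumours 2, 3 and 8 were hybridised on slide 1, tumours 4, 7, 9 and 11 shared slide 2, and the remaining tumours, 1, 5, 6 and 10, were on slide 3.

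A comparative genomic hybridisation array measures relative DNA content. Tumour and normal DNA compete for the same probes, and a chromosome that many tumour cells have gained or lost shifts the red signal of all its probes by the same factor. Normal cells in the sample, or a change carried by some of the tumour cells, pull the shift towards 0. Mutant Pik3ca encodes an overactive catalytic subunit of phosphoinositide 3-kinase, an enzyme that signals to growth and survival through AKT. Of the same pathway, Tsc2 and Pdpk1 lie on chromosome 17 and Rps6kb2 on chromosome 19.

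Values are log2 ratios of tumour over liver signal relative to the median of the array, positions are those of mouse build mm9, and a level is the median over bins of 1 Mb. A loss of 1 of 2 copies in every cell would give -1, and a gain of 1 copy 0.585. A bin, a gene or a segment of at least 10 probes was called gained or lost at 0.2 or more above or below 0. The noise SD between neighbouring probes was 0.13 to 0.28 in 9 tumours, 0.55 in tumour 9 and 0.51 in tumour 11. Spots not well above background made up 12.8% of tumour 9, 8.14% of tumour 2 and at most 3.09% of the others.

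Tumour 11 ran against several other arrays. Over autosomal probes its ratios correlated at -0.60 with tumour 4, -0.61 with tumour 5, -0.65 with tumour 9 and -0.32 with tumour 10. Tumours 4, 5 and 9, the lowest on chromosome 19, correlated with one another at 0.72 (4 and 5), 0.78 (4 and 9) and 0.75 (5 and 9), although tumour 5 is on another slide. The part of this shared pattern in the results on these tumours was not tested. The labels give it the same dyes as the other tumours, so its labelled direction was kept, and its values have the opposite sign if it is turned.

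Over the 3 chromosomes 39 segments were called, 14 gains and 25 losses, in 8 tumours and in none of tumours 7, 9 and 10. Of these, 25 were at most 2 Mb long. With normexp background correction the split was 56 gains and 8 losses, and with each array centred on the mode of its ratios it was 10 and 29.

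Over the 11 tumours 155 bins of the 3 chromosomes were gained and 168 were lost, against 54 and 240 with centring on the mode, and 318 and 167 with normexp. The gained bins lay in 4 tumours. Tumour 8 had 92 of them, where 16.6% of its autosomal bins were gained and 21.0% lost, and tumour 2 had 34, where 19.1% were gained and 1.51% lost. Tumour 7 had 15, where 9.25% were gained and 24.6% lost, and tumour 11 had 14, where 5.15% were gained and 1.76% lost.

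The lost bins lay in 5 other tumours. Tumour 1 had 96, where 19.9% of its autosomal bins were lost and 6.57% gained, tumour 5 had 30, where 1.26% were lost and 3.1% gained, and tumour 9 had 18, where 5.95% were lost and 2.39% gained. Tumour 4 had 15, where 1.97% were lost and 4.98% gained, and tumour 6 had 9, where 1.01% were lost and 11.6% gained. Tumour 3 had none, where 12.3% were gained and 0.712% lost, and tumour 10 had none on any autosome, 0.0% in each direction.

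The probes on both sides of 2 edges are printed first, because they flank the ends of called gains of tumour 2 within a chromosome. Each is a probe of 60 bases as the deposited files give it, with no strand stated there, in lower case throughout. The first pair lies in Parl, a mitochondrial protease gene, and flanks the end of the gain of chromosome 16 in tumour 2.
A_67_P08526685, last gained probe in tumour 2, chr16:20282928-20282987: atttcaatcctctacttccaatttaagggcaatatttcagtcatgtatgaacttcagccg
A_67_P03144022, next probe outside, chr16:20301834-20301893: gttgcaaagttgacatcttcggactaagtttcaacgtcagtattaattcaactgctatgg

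The other pair lies in Fert2, now named Fer, a cytoplasmic tyrosine kinase gene, and flanks the start of a distal gain of chromosome 17 in tumour 2. Here the first gained probe means the first probe of the called segment. It read 0.16 itself, under the threshold.
A_67_P08827319, first gained probe in tumour 2, chr17:64429522-64429581: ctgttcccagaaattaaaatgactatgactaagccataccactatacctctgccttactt
A_67_P08827300, last probe before it, chr17:64419652-64419711: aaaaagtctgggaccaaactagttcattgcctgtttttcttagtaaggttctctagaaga

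**Figure D1:**
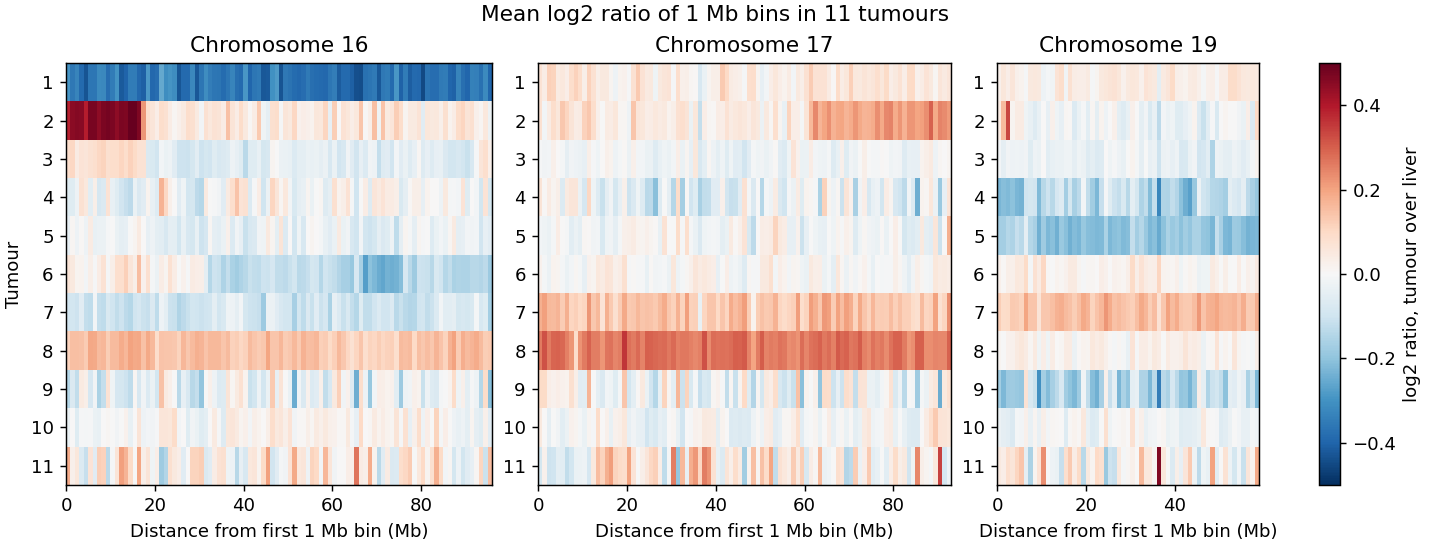
Mean log2 ratio of tumour over liver in bins of 1 Mb (colour), by distance from the first bin of each chromosome in Mb (x axis) and by tumour (rows). Chromosome 16 is low throughout in tumour 1 and high at its start in tumour 2, chromosome 17 is high over nearly all of its length in tumour 8, and chromosome 19 is low in tumour 5 and, less evenly, in tumours 4 and 9.

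In tumour 1 the whole of chromosome 16 was lost. Its level was -0.37 (SD 0.040 over 96 bins), against -0.11 to 0.14 in the other 10 tumours, with a median of -0.02. All 96 bins, from -0.45 to -0.25, were past the threshold, where 19.9% of the autosomal bins of tumour 1 were lost. No other tumour had a chromosome level this low, although the lowest single bin of tumour 6, at -0.27, lay within the range of these bins. Tumour 6 at -0.11, tumour 7 at -0.09 and tumour 8 at 0.14 lay furthest from 0 among the rest.

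The shift sat in the tumour channel. Relative to the other tumours, the red signal of chromosome 16 in tumour 1 was -0.35 (SD of the others 0.076) and the green liver signal was -0.0001 (SD of the others 0.0075). The tumours of the same slide, 5, 6 and 10, had levels of -0.11 to 0.0048.

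The loss was divided into 9 adjacent segments, with means from -0.53 to -0.21. The lowest, at 48062340 to 48561864 (35 probes), lies over Morc1, a germ cell gene that represses transposons, and Dppa2, an early embryo factor. The same stretch read 0.26 in tumour 11 and -0.24 in tumour 9. The highest, at 94582779 to 94900861 (33 probes, -0.21), lies over Dyrk1a, a kinase gene sensitive to dosage, and Ttc3, where tumours 2 and 8 read 0.14 and 0.16. Another short segment, at 27907276 to 28784007 (-0.45), covers Fgf12, a growth factor homologue that binds sodium channels.

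Of 31 genes of 6 lists with probes on chromosome 16, 28 were lost in tumour 1 and none was gained, where 21.9% of all autosomal genes of tumour 1 were lost and 13.1% gained. A gene may stand in more than 1 list. The median of these 31 genes was -0.37, and that of all autosomal genes was 0.02. Lost were all 9 genes of antigen presentation and immune function, all 3 of RAS and MAPK signalling, 7 of 8 oncogenes and cell cycle genes, 5 of 6 tumour suppressors, and 4 of 5 genes of DNA replication, repair and segregation. The exceptions were Dyrk1a (-0.16), the kinase gene Map3k13 (-0.12) and the replication fork gene Donson (-0.14), named after their values were seen.

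Among the tumour suppressors in tumour 1, Runx1, a haematopoietic and mammary transcription factor gene, read -0.43, and the acetyltransferase gene Crebbp read -0.37. The axon guidance receptor genes Robo2 and Robo1 read -0.35 and -0.33. Of the immune genes, Ciita, the master regulator of class II antigen presentation, read -0.49, and the interferon receptor gene Ifnar2 read -0.38. The T cell regulators Cd200 and Cd86 stood at -0.41 and -0.33.

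Signalling and growth genes followed the chromosome in tumour 1. The Rac activator gene Tiam1 read -0.48 and the adaptor gene Crkl -0.37. The kinase genes Tnk2 and Pak2 read -0.46 and -0.45, and the transcription factor gene Erg and the basal epithelial factor gene Trp63 read -0.33 and -0.28. Of the DNA repair and replication genes, Prkdc, the catalytic subunit of DNA-dependent protein kinase, read -0.39, the histone chaperone gene Chaf1b -0.555 over 2 probes, and the topoisomerase gene Top3b -0.22. None of the 14 genes of the PI3K signalling list has a probe on chromosome 16.

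Tumour 2 gained the start of chromosome 16. From 3706275 to 20282987 (16.6 Mb, 1301 probes) the mean was 0.47 (SD 0.21 over probes), and over the rest of the chromosome it was 0.05, a difference of 0.41. In the other 10 tumours the same difference lay between -0.04 and 0.16. The edges were drawn on the ratios of tumour 2 itself, which favours a larger difference there. In tumour 2, 18 bins of chromosome 16, or 18.8%, were gained, where 19.1% of its autosomal bins were gained.

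The edge was sharp at the resolution of the array. The last gained probe read 0.47 and the next 0.0061, with a gap of 18.8 kb between them, and both lie in Parl. The same 2 probes had medians of -0.04 and 0.04 in the other tumours. The bins before the edge read 0.51, 0.50 and 0.47, the bin that holds it 0.22, and the bins after it 0.08, 0.06 and 0.03. In 11 of 12 other settings the last gained probe was the same, and with normexp it lay 0.024 Mb away. Several of the 12 could not move this edge. The turning of tumour 11 leaves tumour 2 as it is, and centring on the mode shifts all ratios of an array alike. Other thresholds and a larger minimum of probes per call act on segments already drawn. The settings that could move the edge, apart from normexp, kept the probe. They were the authors' value table, the GC fit, other penalties, and leaving out dim spots or log ratios of 0.

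**Figure D2:**
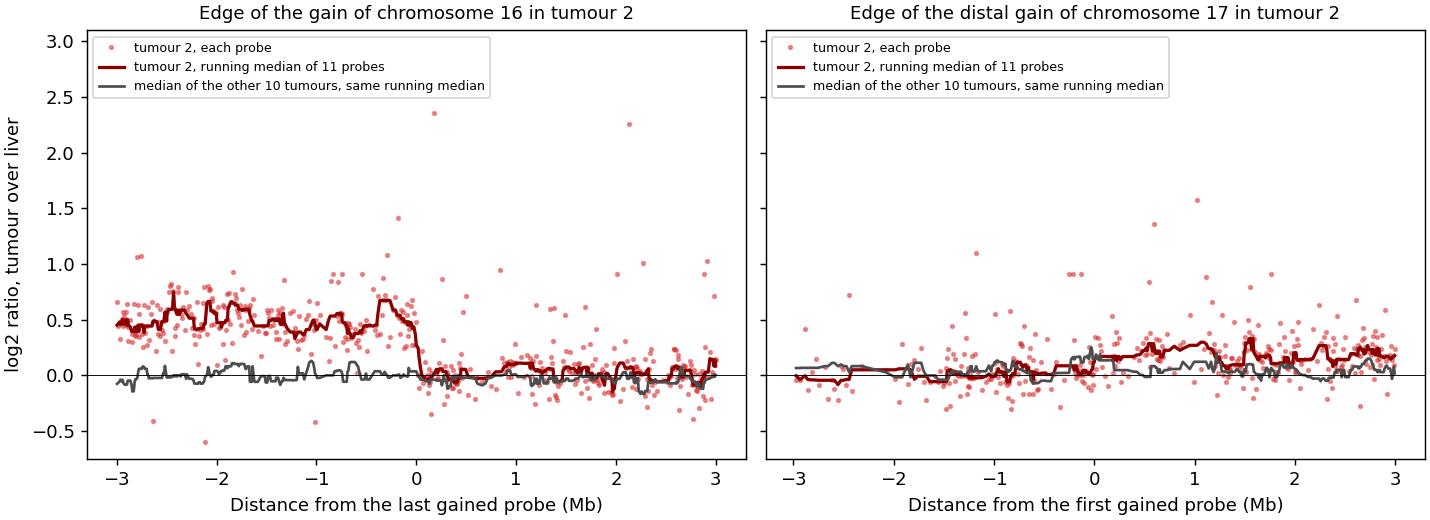
Log2 ratio of tumour over liver of single probes of tumour 2 (points) and the running median of 11 probes (lines) by distance in Mb, around the end of the gain of chromosome 16 (left) and the start of the distal gain of chromosome 17 (right), with the median of the other 10 tumours in grey. The gain of chromosome 16, with a mean of 0.47, ends in a clear step, and that of chromosome 17, with a mean of 0.21 against 0.05 over the rest of the chromosome, starts with a smaller one.

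Of 176 genes wholly in this gain, 172 were gained and 1 was lost in tumour 2, where 23.6% of all its autosomal genes were gained and 9.28% lost. Their median was 0.46. Of the 31 listed genes of the chromosome, 8 were past the threshold in tumour 2, and all 8 lie here. In tumour 2 the topoisomerase gene Top3b read 0.64, the replicative helicase gene Mcm4 0.58, Prkdc 0.47, Crebbp and Crkl 0.44 each, Litaf, a gene of endosomal trafficking, 0.41, and Ciita 0.36. Each of these genes had the opposite sign in tumour 1, where the same stretch stood at -0.36.

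Signal quality in this gain was that of the array. Of its 1301 probes 89, or 6.84%, were dim, and 22 had a deposited log ratio of 0. Without the latter the mean was 0.47, and without dim spots it was 0.48. Relative to the other tumours the red signal was 0.45 and the green signal -0.02.

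Tumours 3 and 6 had weaker steps on the same chromosome. In tumour 3 the first segment ended at 20755332, 0.472 Mb from the edge of tumour 2, with means of 0.09 before and -0.07 after it, both under the threshold. In tumour 6 a segment of 0.02 ended at 34530757 and one of -0.14 began at 34548417. Beyond it tumour 6 had a called loss from 69600928 to 78969678 (9.37 Mb, 472 probes), with a mean of -0.24 (SD 0.16), against -0.06 over the rest of the chromosome. The segments on its sides read -0.07 and -0.14. The difference was -0.18, against -0.07 to 0.04 in the other 10 tumours, but the edges were drawn on the ratios of tumour 6 itself. All 9 lost bins of tumour 6 lie on this chromosome.

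The loss of tumour 6 is poor in genes. Of 36 genes wholly inside, 25 were lost, where 11.0% of the autosomal genes of tumour 6 were lost. The genes with the most probes there are Robo2 (-0.25, 52 probes), Robo1 (-0.26, 39 probes) and Gbe1, the glycogen branching enzyme gene (-0.27, 31 probes). In tumour 1, where the whole chromosome was lost, the same stretch stood lower, at -0.36. Of the 31 listed genes of the chromosome, 6 were lost in tumour 6, and apart from Robo1 and Robo2 these lie outside the called segment. They are Runx1 (-0.23), Ifnar2 (-0.26) and the cytokine receptor genes Ifngr2 (-0.21) and Il10rb (-0.40) with 2 probes each, and the last 2 names were chosen after their values were seen.

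The first probe of this loss is also the last probe of a short gain in tumour 2. That gain spans 68944362 to 69600987 with 18 probes, of which 6 are dim, and holds no named gene. Its mean was 0.28 in tumour 2 and -0.49 in tumour 1. Other short calls on chromosome 16 were a loss over Zbtb20, a transcriptional repressor gene, in tumour 3 (-0.23) and a gain over Pdia5 and Sema5b in tumour 5 (0.25). At Pdia5 and Sema5b, tumour 9 read 0.52 and tumour 11 -0.61. At Zbtb20, tumours 1 and 6 read -0.28 and -0.20 as well.

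**Figure D3:**
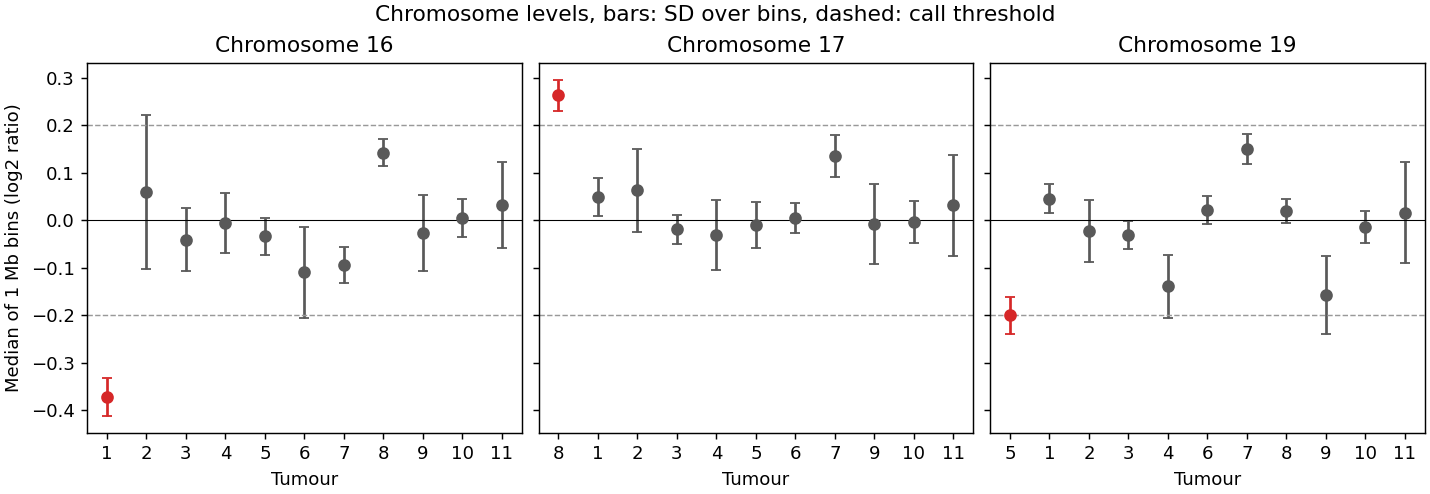
Median log2 ratio of the 1 Mb bins of chromosomes 16, 17 and 19 (y axis) in each tumour (x axis), with the SD over bins as bars and the threshold of 0.2 as dashed lines. Tumour 1 (chromosome 16, -0.37) and tumour 8 (chromosome 17, 0.26) lie beyond the threshold, and tumour 5 (chromosome 19, -0.20) lies on it.

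Chromosome 17 was gained over nearly all of its length in tumour 8. Its level was 0.26 (SD 0.033 over 93 bins), against -0.03 to 0.14 in the other 10 tumours, with a median of 0.0010. Of its 93 bins, 91 were gained, or 97.8%, and the lowest was 0.09, where 16.6% of the autosomal bins of tumour 8 were gained. Called gains held 99.3% of the probes. The levels of the other tumours did not overlap it, and the nearest was tumour 7 at 0.14.

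Red signal carried this shift as well. Relative to the other tumours it was 0.25 (SD of the others 0.066) in tumour 8, and the green signal was -0.01 (SD of the others 0.0102). The other tumours of the slide, 2 and 3, had levels of 0.06 and -0.02.

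The zero level of tumour 8 is not settled. Its ratios had peaks at -0.12, 0.04 and 0.16 of nearly the same height and a lower one at -0.29, and centring on the highest, at 0.16, shifted all its ratios by -0.1575. The level of chromosome 17 was then 0.106, and no gain was called on it. With normexp the level was 0.40. Chromosome 16 in tumour 8, at 0.14 without a call, was -0.02 with the same centring, and chromosome 19, at 0.02, was -0.14.

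Tumour 7 was open to the same choice. It had its main peak at 0.15 and a lower one at -0.31. With the main peak at 0 its levels of chromosomes 17 and 19, 0.14 and 0.15, were -0.02 and -0.0022, and that of chromosome 16, -0.09, was -0.25 and past the threshold.

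Of 47 listed genes on chromosome 17, 34 were gained in tumour 8 and none was lost, where 19.2% of all its autosomal genes were gained and 25.0% lost. The median of the 47 was 0.25, against -0.02 for all autosomal genes. Gained were 9 of 10 genes of RAS and MAPK signalling, 6 of 7 tumour suppressors, 6 of 7 genes of DNA replication, repair and segregation, 4 of 5 of PI3K signalling, 7 of 13 oncogenes and cell cycle genes, and 5 of 8 immune genes. At a threshold of 0.3 the count was 9 of 47, and the share of all autosomal genes at that threshold was not determined.

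The PI3K genes stood near the level of the chromosome. In tumour 8, Tsc2, whose product restrains mTORC1, read 0.29, Igf2r, the receptor that clears IGF2, 0.25, Pdpk1, the kinase that activates AKT, 0.24 and the kinase gene Prkce 0.20. Ppp2r1a, the scaffold of protein phosphatase 2A, read 0.15. Tsc2 was higher in tumour 3, at 0.48 over its 4 probes, where chromosome 17 stood at -0.02.

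In the RAS and MAPK list of tumour 8, Tiam2 and Rps6ka2 read 0.29 each, the RAS exchange factor gene Sos1 0.24 and the kinase gene Map4k3 0.23. Among the oncogenes and cell cycle genes, the receptor kinase gene Alk read 0.28, the bone transcription factor gene Runx2 0.27 and the cyclin gene Ccnd3 0.25. The Wnt scaffold gene Axin1 read 0.28 and the chromatin remodeller gene Arid1b 0.23. Cdc5l and Smchd1, genes of splicing and of chromosome silencing, read 0.33 each, and the apoptosis inhibitor gene Birc6 read 0.28.

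Of the immune genes in tumour 8, the kinase gene Eif2ak2, an antiviral sensor, read 0.33 and the complement gene C3 0.21, each over 3 probes. The histocompatibility gene H2-Ab1 (1 probe) read 0.18 and the peptide transporter gene Tap2 (2 probes) -0.02, both without a call. The H2 genes have near-identical copies, so their values are uncertain.

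Tumour 2 had a distal gain of chromosome 17, from 64429522 to the last probe at 95254967 (30.8 Mb, 2119 probes). Its mean was 0.21 (SD 0.24), against 0.05 over the rest of the chromosome, a difference of 0.16. In the other 10 tumours the same difference ran from -0.02 to 0.01, over an edge drawn on the ratios of tumour 2 itself. Of the 93 bins of tumour 2, 15 were gained, or 16.1%, which is below the 19.1% of all its autosomal bins. In the authors' value table and without dim spots the mean was 0.196, and the call was lost. The red signal was 0.14 and the green signal 0.02 relative to the other tumours.

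The edge of this gain is less clear than that on chromosome 16. The first gained probe read 0.16 and the one before it 0.0088, while the same 2 probes had medians of 0.22 and 0.10 in the other tumours. Both lie in a stretch of Fert2 from 64219587 to 64503205 that was called gained in tumour 1 (0.22, 32 probes) and was above 0 in all 11 tumours, up to 0.30 in tumour 8. The bins read 0.03, -0.0087 and 0.06 before the edge, 0.16 at it, and 0.24, 0.17 and 0.20 after it.

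Of 186 genes wholly in the distal gain, 90 were gained and 3 were lost in tumour 2, where 23.6% of all its autosomal genes were gained and 9.28% lost. Their median was 0.20. Of the listed genes there, Map4k3 read 0.25, Smchd1 and Prkce 0.22 each and Alk 0.21, while Birc6 read 0.14 and was not called. In tumour 8 the distal part stood at 0.268 and the rest of the chromosome at 0.26, a difference of 0.0045 without such a step.

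Tumour 2 had further short calls. On chromosome 17 a gain over Abca3, Pkd1 and Tsc2 (24481634 to 24785254, 31 probes) had a mean of 0.28, where tumour 8 read 0.26. A loss of -0.25 over Emr4 and Zfp119 (20 probes) had an SD of 0.62 over probes. A gain on chromosome 16 over Gart, Son and Donson (0.35) had 10 probes. On chromosome 17, tumour 6 had a gain of 0.21 over Vmn2r114 to Vmn2r116, vomeronasal receptor genes with close copies, whose values are therefore uncertain.

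Chromosome 19 was lowest in tumour 5, at the limit of calling. Its level was -0.20 (SD 0.040 over 59 bins), against -0.16 to 0.15 in the other 10 tumours, with a median of 0.0012. The called segment ran from 12325758 to 61319646 (49.0 Mb, 82.5% of the probes) with a mean of -0.2002. Of the 59 bins, 30 were lost, or 50.8%, where 1.26% of the autosomal bins of tumour 5 were lost. With centring on the mode, in the authors' value table, without dim spots or after a fit of GC content, no loss was called on the chromosome, although its level lay between -0.2024 and -0.1928.

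Tumours 9 and 4 came next, and neither was called as a whole. Their levels were -0.16 (SD 0.081) and -0.14 (SD 0.066), and 13 of 59 bins were lost in each, where 5.95% of the autosomal bins of tumour 9 and 1.97% of those of tumour 4 were lost. Just under the threshold on the other side lay tumour 7, at 0.15. The order from the lowest was tumour 5, 9, 4 and 3, and the levels of tumours 9 and 4 differed from that of tumour 5 by less than their own SD over bins.

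In all 3 tumours the red signal was low, and they differed in evenness over bins. The red signal of chromosome 19 relative to the other tumours was -0.17 in tumour 5, -0.10 in tumour 9 and -0.13 in tumour 4, and the green signals lay between -0.0118 and 0.0049. Without dim spots the level of tumour 9 was -0.09. The lowest and highest bins were -0.25 and -0.04 in tumour 5, -0.35 and 0.07 in tumour 9, and -0.33 and -0.0054 in tumour 4.

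Of 30 listed genes on chromosome 19, 16 were lost in tumour 5, 1 was gained, and their median was -0.22. Of all its autosomal genes 14.9% were lost and 14.4% gained, and their median was -0.01. Tumour 9 also had 16 lost genes, where 31.5% of its autosomal genes were lost, and tumour 4 had 12, where 21.8% were lost. In tumour 5, 5 of 7 tumour suppressors, 4 of 5 PI3K genes, 3 of 6 oncogenes and cell cycle genes, 3 of 7 genes of DNA replication, repair and segregation, 1 of 4 RAS and MAPK genes and 1 of 2 immune genes were lost.

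In the PI3K list of tumour 5, Chuk, a kinase gene of NF-kB signalling, read -0.50, Pdcd4, a translation inhibitor gene, -0.46 and Rps6kb2, a ribosomal protein S6 kinase gene, -0.51 over 1 probe. The adaptor gene Pik3ap1 read -0.10 and was not called. In tumour 9 the same genes read -0.70, -0.59, -1.548 and 0.19, and in tumour 4 -0.29, -0.35, -1.115 and 0.02. In tumour 11 they read 0.09, 0.29, 0.41 and -0.30, opposite in sign to tumour 9 for each gene.

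Further genes lost in tumour 5 were Smarca2, a chromatin remodeller gene (-0.34), Mxi1, an antagonist of Myc (-0.24), the kinase gene Jak2 (-0.30) and Gnaq, a G protein gene (-0.29). Hells, a chromatin remodeller gene, and Pola2, a DNA polymerase alpha subunit gene, read -0.32 each, Shoc2, a RAS pathway scaffold gene, -0.32 and Pdcd1lg2, which encodes the checkpoint ligand PD-L2, -0.35. Each of these lost genes was negative in tumours 4 and 9 as well, with Pola2 at -0.57 and -0.70. In tumour 11 Smarca2, Mxi1, Hells, Pola2 and Shoc2 were positive, and Jak2, Gnaq and Pdcd1lg2 were negative. Sufu (-0.19), Tcf7l2 (-0.18) and Kif11 (-0.13) were not called, nor was Smc3 (0.02). Cd274, the neighbour of Pdcd1lg2 that encodes PD-L1, read -0.08 over 1 probe.

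In tumour 2 chromosome 19 carried a short gain, from 4542132 to 5827358 (1.29 Mb, 130 probes), with a mean of 0.43 (SD 0.26) against -0.02 over the rest. The difference was 0.46, against -0.06 to 0.05 in the other 10 tumours, over edges drawn on the ratios of tumour 2 itself. Of 42 genes wholly inside, 39 were gained and 2 were lost, down to -0.81, where 23.6% of all autosomal genes of tumour 2 were gained and 9.28% lost. The gained genes include the NF-kB subunit gene Rela (0.53, 2 probes) and the trafficking gene Pacs1 (0.45). The call starts within Pcx, the pyruvate carboxylase gene, and ends at Malat1, a long non-coding RNA gene. Here the green liver signal moved too, to -0.17 (SD of the others 0.061) beside a red signal of 0.36 (SD 0.12). In tumours 4, 9 and 5 the same stretch read -0.19, -0.17 and -0.16.

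The calls of tumours 4 and 11 had opposite signs. All 9 calls of tumour 4, 5 on chromosome 17 and 4 on chromosome 19, were losses, each of them was below 0 in tumour 9, and each was above 0 in tumour 11. Over Pola2 and Capn1 (5925973 to 6083525, 18 probes), tumour 4 read -0.60, tumour 9 -0.72, tumour 5 -0.28 and tumour 11 0.40. Over Spdya and Wdr43 on chromosome 17 (13 probes), tumour 4 read -0.42, tumour 9 -0.48 and tumour 11 0.53. Over Memo1, Birc6 and Spast (43 probes), these tumours read -0.34, -0.33 and 0.27. Tumour 7 read -0.08, 0.02 and 0.06 over the same stretches. Tumours 5 and 10, on slide 3, each had the sign of tumour 4 in 8 of its 9 calls. Tumours 4, 7, 9 and 11 share slide 2, and the part of the slide in these values was not tested.

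Tumour 11 had 4 calls of its own, and each had the opposite sign in tumours 4 and 9. Over Stk38, a kinase gene, and Sfrs3, now named Srsf3, a splicing factor gene (29119227 to 29225865, 13 probes), tumour 11 read 0.87 (SD 0.89 over probes), against -0.52 in tumour 4, -0.63 in tumour 9 and -0.22 in tumour 5. From 38930621 on chromosome 19, over Tbc1d12 and the Cyp2c genes of drug metabolism, tumour 11 read 0.43 and tumour 4 -0.32 over 97 probes, and a loss called in tumour 4 began at the same probe. The Cyp2c genes have near-identical copies and are uncertain. Around the histocompatibility region of chromosome 17, tumour 11 had a gain of 0.28 followed by a loss of -0.22 at 34050218. Turned, these 4 values are -0.87, -0.43, -0.28 and 0.22.

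**Figure D4:**
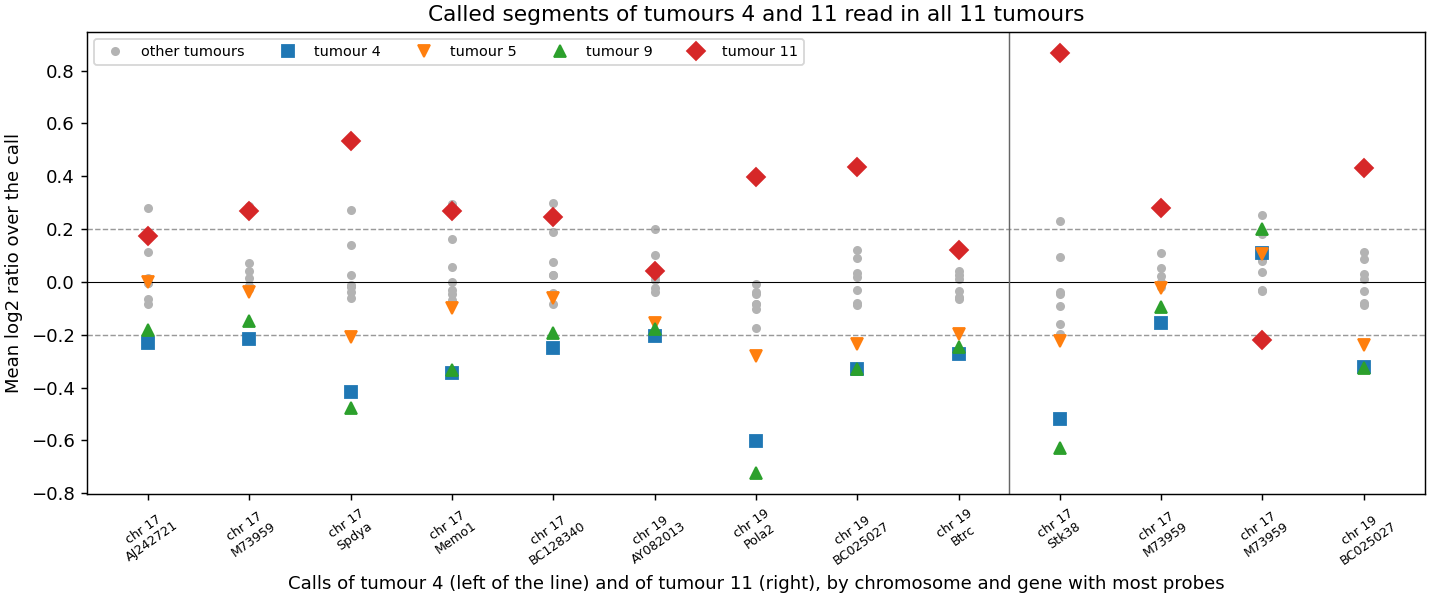
Mean log2 ratio over each called segment of tumour 4 (9 calls, left of the line) and tumour 11 (4 calls, right) in all 11 tumours, named by chromosome and by the gene with most probes. Tumours 4 and 9 lie on the same side of 0, and tumour 11 on the other, in each of these calls.

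Levels were also set beside the change of 1 copy that would give them. The loss of chromosome 16 in tumour 1 corresponded to 45.5% of a loss of 1 copy in every cell, beside 45.1% for chromosome 7, 42.9% for chromosome 13 and 40.2% for chromosome 6 of the same tumour. These 4 levels lay close together, although only 59.9% of the bins were lost on chromosome 6 and 79.5% on chromosome 13. The gain of chromosome 3 in tumour 1 corresponded to 65.3% of a gain of 1 copy.

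In tumour 8 the gain of chromosome 17 corresponded to 40.1% of a gain of 1 copy, beside 47.6% for chromosome 15. The losses of its chromosomes 9, 10 and 12 lay between 37.0% and 38.8% of a loss of 1 copy. Its chromosomes 4 and 11 were mixed, with 106 bins gained and 43 lost on chromosome 4 and 44 gained and 73 lost on chromosome 11, so their levels (43.7% of a gain and 31.7% of a loss) are medians over both. Centring on the highest peak gave 15.2% for chromosome 17 and normexp 64.8%, so its place among these depends on the zero level.

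The partial gains of tumour 2 stood further apart. The start of chromosome 16 corresponded to 76.3% of a gain of 1 copy, the short gain on chromosome 19 to 70.0% and the distal gain of chromosome 17 to 30.8%. In the short gain on chromosome 19 the green liver signal was low, at -0.17, so its share does not rest on the red signal alone. Its other autosomes past the threshold gave 62.2% for chromosome 3, 47.9% for chromosome 8 and 33.3% for chromosome 15. The distal gain of chromosome 17 was thus the lowest of these 6, and the start of chromosome 16 the highest. The partial gains enter as means of segments drawn as gains, and the other autosomes as medians of whole chromosomes, so the order does not compare like with like. Against the rest of its own chromosome, the gain on chromosome 19 (0.46) was larger than that on chromosome 16 (0.41). Levels under the threshold, such as that of chromosome 13 at 19.2%, are not among them. Nor are partial gains elsewhere, with 34 gained bins on chromosome 13 and 24 on chromosome 11.

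Chromosome 19 in tumour 5 corresponded to 25.9% of a loss of 1 copy, the smallest share among the levels past the threshold on the 3 chromosomes. With a level of -0.2003 beside a threshold of 0.2, this rank follows from the threshold. No other chromosome of tumour 5 was past the threshold, with chromosome 3 the nearest at 0.1967, or 29.2% of a gain. In tumour 6 the distal loss of chromosome 16 corresponded to 30.7% of a loss, beside gains of 50.04% for chromosome 15 and 34.3% for chromosome 10. A change in some of the tumour cells, normal cells in the sample and compression of the array ratios cannot be told apart in these shares.

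**Figure D5:**
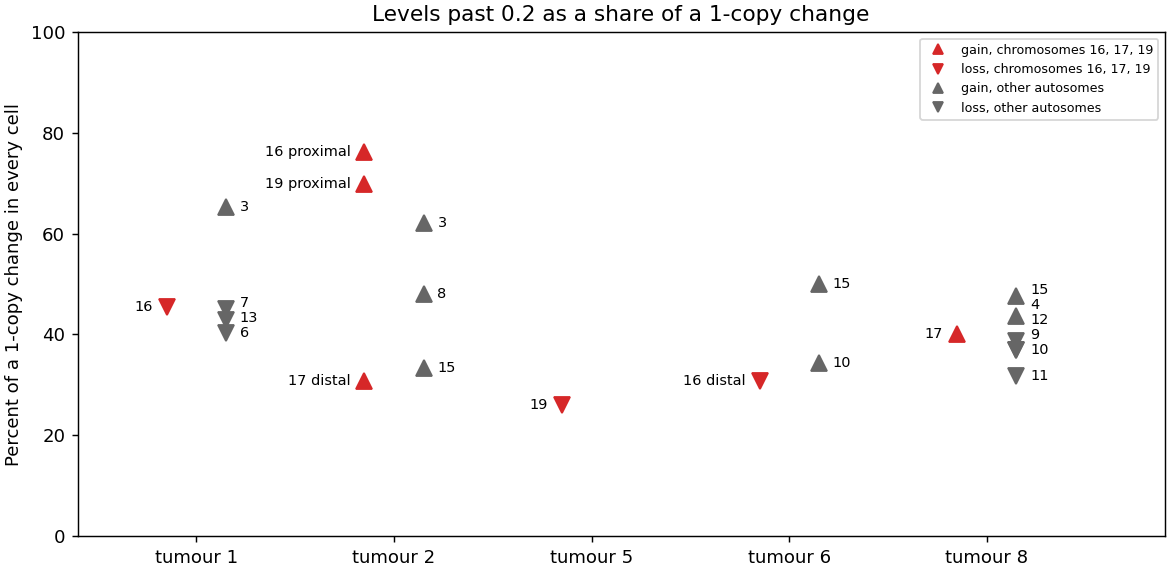
Share (percent) of a 1-copy gain or loss in every cell that each level past 0.2 corresponds to (y axis), in tumours 1, 2, 5, 6 and 8 (x axis), for chromosomes 16, 17 and 19 (red, left of each tumour) and the other autosomes (grey, right). In tumour 1 chromosome 16 (45.5%) lies with 3 other losses, and in tumour 2 the start of chromosome 16 (76.3%) lies highest and the distal part of chromosome 17 (30.8%) lowest.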

How the data were processed

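DNA of 11 tumours was compared with liver DNA of the same animal on 2-colour Agilent arrays. Per the submitters' processing notes, Agilent Feature Extraction 10.5.1.1 and Partek were used; per the file headers, tumours 4, 7, 9 and 11 were read with version 11.0.1.1. The deposited scanner files give background-subtracted, dye-normalized intensity for both channels and a log10 ratio, and the authors' value table holds that ratio as log2. The log2 of processed red over green intensity was averaged over the spots of a probe, without outlier spots, and the array median was subtracted. Bins of 1 Mb needed 5 probes. Segments came from exact optimal partitioning (penalty per change of 2 noise variances multiplied by the natural log of the probe count, a minimum of 5 probes, values clipped at 4 SD of a running median of 11 probes), tested on simulated data. A level past the threshold was called without a test, and no p-value is given. Other settings were centring on the mode, normexp (offset 50, on median signals, since 4 files lack the mean signal), the authors' value table, no dim spots, a GC fit, other bins, thresholds and penalties, and, chosen after seeing the data, leaving out spots with a log10 ratio of 0. Gene values are means over the probes the array assigns to a gene; current names come from a RefSeq table. The 3 chromosomes, the gene lists and the thresholds were chosen with earlier results of these data known. Named are all PI3K genes and up to 4 genes with most probes per other list and chromosome, up to 3 genes with most probes per call of at most 10 Mb, and genes at edges; other names are members that decided a count. Some items that this rule names are not reported here. Saturated spots were absent. Python 3.11.15, numpy 2.4.6, pandas 2.3.3, numba 0.67.0, matplotlib 3.10.9, R 4.3.3 and limma 3.58.1 were used. The number of arrays, 1 per tumour, limits the precision.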

Additional observations from a re-analysis of the deposited data

How the results depend on the processing

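No paired analysis was possible because the design has 1 group, each ratio already sets a tumour against the liver of its own animal, and no result comes from a test. Of 447 values recomputed under other settings, 416 moved by less than the spread between tumours (or, for counts, by less than 1.5 times), 27 moved further and 4 reversed. Most of them, 303, were levels of the other 30 pairs of chromosome and tumour, of which 298 moved by less. Among the 104 values of the main results, 85 moved by less and 19 moved further. Centring on the mode put chromosome 17 of tumour 8 at 0.11, and normexp put it at 0.40. With all tumours together, 54 bins were gained with the mode and 318 with normexp. A threshold of 0.15 gave 288 gained and 256 lost bins and 30 called gains, and a threshold of 0.3 gave 28 gained and 91 lost bins, 5 called gains and 10 called losses. Normexp gave 56 called gains and 8 losses, a penalty factor of 1 gave 122 and 116, and a factor of 4 gave 7 and 5. With at least 20 probes in a call there were 9 gains. At 0.3 the listed genes gained on chromosome 17 of tumour 8 numbered 9 of 47, with no share of all autosomal genes determined at that threshold. Turning tumour 11 reversed its 4 calls, at -0.87 (Stk38), -0.28 and 0.22 (histocompatibility region) and -0.43 (Cyp2c stretch). Apart from the effect of turning or of fewer probes, the cause was not tested. Calls of few probes in tumours 9 and 11 are limited by their noise.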
